A study of Mus musculus with 16 samples.

Results

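Seminal vesicles (SV) that had been exposed to diethylstilbestrol (DES) shortly after birth were compared at week 5 between mice without and mice with oestrogen receptor α (ERα), using the 4 αERKO-DES and the 4 WT-DES samples, which are 8 of the 16 samples of the study. Genes were kept when their mean FPKM (fragment counts scaled by transcript length and library size) was above 1 in either group, which held for 15752 of the 31274 genes in the table. All mice were male C57BL/6 of week 5, and both groups had been given DES under the skin in corn oil, 2 µg for each pup each day from day 1 to day 5. αERKO-DES mice carried no functional ERα gene in any tissue, whereas WT-DES mice carried the intact gene. The other 8 samples were 4 WT-veh and 4 αERKO-veh samples, which had received corn oil without DES, and their values are given here as the untreated background. DES was thus common to both groups compared, and the comparison is one of genotypes in exposed tissue, not of DES with vehicle.

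Several features limit the groups as models. The αERKO mice came from matings of heterozygous parents and the WT mice from purchased pregnant females, so genotype and origin of the mice cannot be told apart. The methods of the study describe 4 single mice for each of the other groups but 3 pools of mice for WT-DES in the preparation of RNA. They also give 4 samples for each group in RNA-seq. How the 4 WT-DES libraries relate to the 3 pools is not stated, and they may not be 4 independent units. The p-values therefore measure the spread between these samples. The glands were cut away from the anterior prostate, which lies against them, but in whole tissue every cell type contributes RNA.

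ERα is a nuclear receptor that binds oestrogens, among them the synthetic oestrogen DES, and then regulates genes from sites on DNA. The seminal vesicle is a gland of the male tract that depends on androgens for its growth. Its columnar epithelium secretes very large amounts of a few proteins, the seminal vesicle secretory (SVS) proteins, which form the copulatory plug, and a coat of smooth muscle empties the gland. Neonatal exposure to DES is known to leave lasting changes in the organs of the reproductive tract.

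*Esr1*, the gene for ERα (chr10:4611593-5005614, plus strand, GRCm38), was measured at 8.74, 19.64, 12.99 and 15.71 FPKM in WT-DES samples 1 to 4. It was at 0.91, 1.15, 1.51 and 1.64 FPKM in αERKO-DES samples 1 to 4. Every αERKO-DES sample thus lay below every WT-DES sample, in the direction of the genotype labels. The difference was -2.69 ± 0.22 (SE) on the log2(FPKM + 1) scale, with an adjusted p of 1.3e-05 by limma. In WT-veh *Esr1* was at 3.87 ± 0.80 FPKM, below every WT-DES sample, and without DES the genotypes differed by -0.94. The difference of -2.69 thus also holds the higher level of WT-DES over WT-veh. *Esr1* was not at 0 in the αERKO groups, with 1.52 ± 0.20 FPKM in αERKO-veh, and the table does not tell from which exons those reads came. All differences below are αERKO-DES minus WT-DES on the same log2(FPKM + 1) scale, which understates the change of weakly expressed genes. A rise or a fall is read from WT-DES to αERKO-DES, and not from untreated tissue. Means are given in FPKM ± SD with n = 4, and FPKM is per length, so that levels can be set beside each other between genes.

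The groups differed in a large share of the genes tested. A gene was called a DEG when its limma adjusted p was at most 0.05, the mean FPKM differed by at least 1.5-fold and its mean FPKM was above 1 in either group. By this rule 8348 of the 15752 genes (53.0%) were DEGs, of which 3753 were higher in αERKO-DES (23.8% of the genes tested) and 4595 were lower (29.2%). The samples of the groups did not overlap at all in 10577 genes (67.1%). Large differences, of at least 4-fold on the log2(FPKM + 1) scale, were fewer among the higher genes, with 362, than among the lower genes, with 830. A gene above 1 FPKM in WT-DES alone entered the test only through the group in which it was higher. There were 1931 such genes, of which 1680 were called lower, and 379 genes above 1 FPKM in αERKO-DES alone, of which 269 were called higher. Among the 13442 genes above 1 FPKM in both groups 25.9% were higher and 21.7% lower. Counts over a list are given over its tested members and are to be read beside 23.8% and 29.2%, and where many members were above 1 FPKM in WT-DES alone the count is given for those above it in both groups. Members named below that did not pass were chosen after their values were seen.

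The libraries differed in their totals and in what filled them. The summed FPKM was 375207 to 437619 in WT-DES and 531467 to 622477 in αERKO-DES. The 20 highest genes of each sample made up 4.35% to 18.07% of it in WT-DES, where a single entry, *TRBV16\*01*, took 12.56% of sample 3, and 12.80% to 17.84% in αERKO-DES. When every sample was scaled to the same summed FPKM, 18.9% of the DEGs were higher, against 45.0% as measured, and the median of all genes was -0.44. When the 20 genes with the highest mean were left out of that total, here called the rescaling, 24.4% were higher and the median was -0.33. The shift thus came with equal totals and was smaller once the most abundant genes were left out. Of the 423 list genes called, 7 changed direction under quantile normalisation, *Cldn4*, *Cox4i1*, *Ndufa4*, *Nr3c2*, *Rpl4*, *Rpl8* and *Tagln*, and 0 did so under the rescaling. Among the WT-DES samples, replicate 1 stood apart in several cell type lists, and its values are given where they matter.

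**Figure D1:**
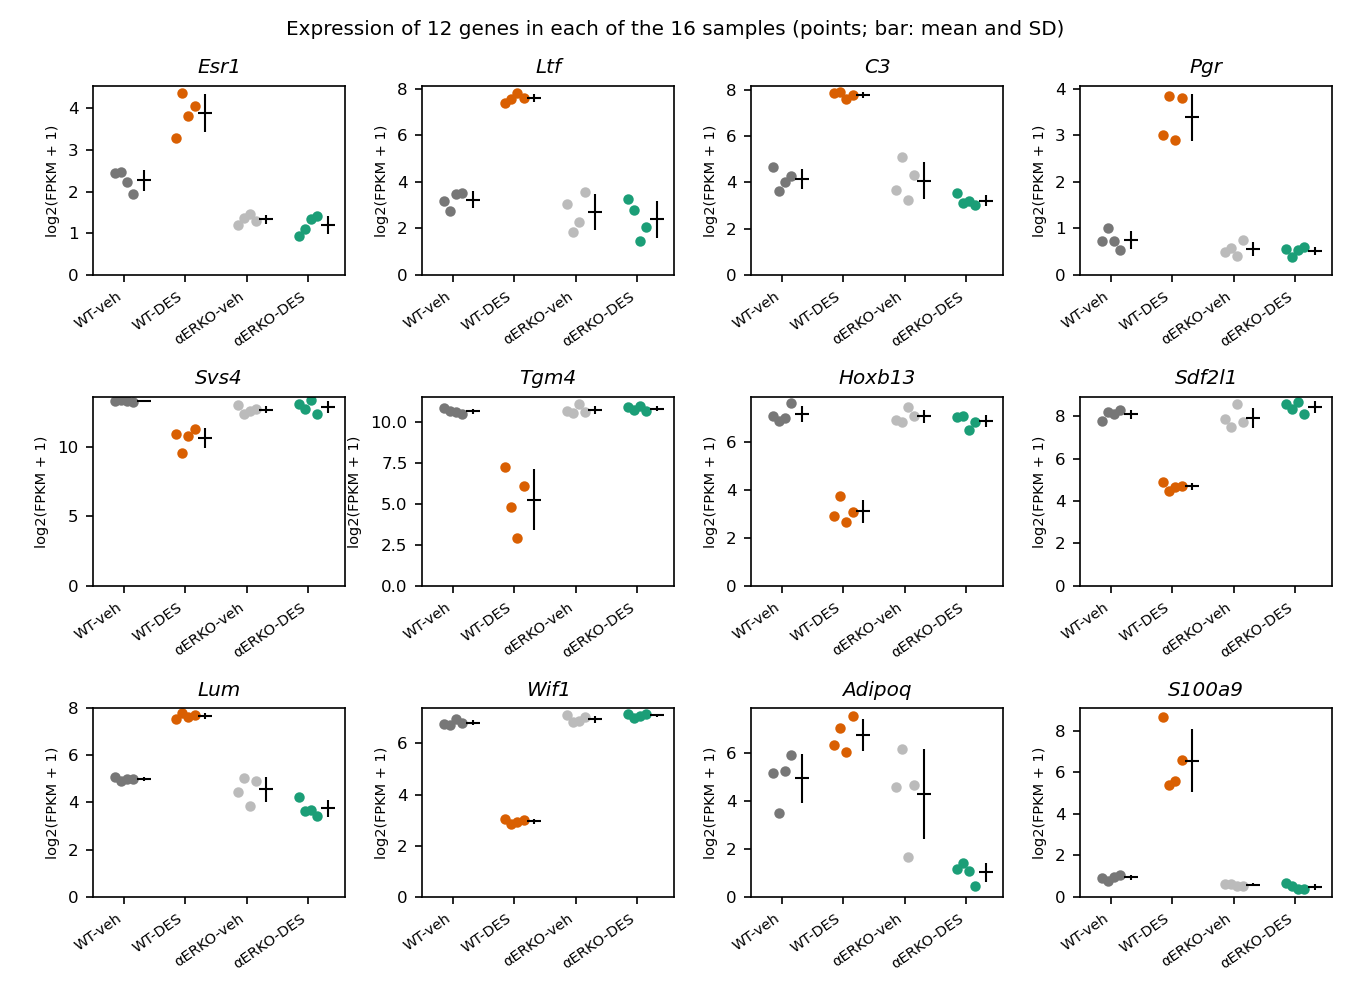
Level of 12 genes in each of the 16 samples, as log2(FPKM + 1) on the vertical axes, by group on the horizontal axes, with samples as points and the group mean and SD as a bar beside them. WT-DES stands apart from the other 3 groups in most panels, for example *Svs4* at 770.68 to 2475.82 FPKM against 5374.31 to 10749.3 in αERKO-DES, while *Esr1* is low in both αERKO groups.

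Genes induced by oestrogen in the uterus were mostly lower without ERα. Of 11 such genes, 8 were lower and 2 higher. Of the 7 that were above 1 FPKM in both groups, 4 were lower. *Ltf*, which encodes the iron-binding secreted protein lactotransferrin and is a long-used marker of oestrogen action, was at 166.78, 184.75, 221.26 and 193.38 FPKM in the WT-DES samples. It was at 8.60, 5.92, 1.76 and 3.08 FPKM in the αERKO-DES samples, and 8.53 ± 2.21 in WT-veh. The groups did not overlap, and *Ltf* differed by -5.20 ± 0.35 (adjusted p = 4.2e-06). *C3*, the central component of complement, fell from 223 ± 20.8 to 8.36 ± 1.66 FPKM (-4.59 ± 0.13). *Pgr*, the progesterone receptor, was at 9.88 ± 3.67 in WT-DES and 0.43 ± 0.083 in αERKO-DES (-2.87 ± 0.23), and the membrane mucin *Muc1* at 8.40 ± 4.12 and 0.505 ± 0.195. *Lcn2*, an iron-sequestering defence protein and the most abundant member, was also lower, at 145 ± 57.0 against 359 ± 174. The 2 members that were higher were *Ccnd1*, the cyclin D1 gene, at 238 ± 18.1 against 69.3 ± 10.2 FPKM, and *Vegfa*, an angiogenic growth factor, at 66.7 ± 9.33 against 44.4 ± 7.41. The call of *Vegfa* was lost without WT-DES sample 2 (0.51), WT-DES sample 3 (0.54), αERKO-DES sample 2 (0.56) or αERKO-DES sample 3 (0.50). In WT-veh and αERKO-veh *Vegfa* was at 73.2 and 69.3 FPKM, and *Ccnd1* at 174 ± 13.3 and 209 ± 24.4. The creatine kinase gene *Ckb* differed by 0.78, which did not pass the test (adjusted p = 0.11).

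Besides *Esr1* and *Pgr*, the steroid receptor genes that were lower included *Nr3c1*, the glucocorticoid receptor, at 11.6 ± 2.18 against 27.2 ± 1.92 FPKM, and *Nr3c2*, the mineralocorticoid receptor, which differed by -0.61 (0.03 under quantile normalisation). The membrane oestrogen receptor *Gper1* was at 0.868 ± 0.121 and 1.14 ± 0.158 FPKM and did not pass the test, and *Esr2*, the gene for ERβ, was under the minimum in both groups.

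The proteins for which the gland is known were the group with the strongest rise without ERα. All 12 measured seminal vesicle secretion genes were higher in αERKO-DES, with a median difference of 4.23, and none of them overlapped between the groups. *Svs4*, a major androgen-dependent SVS protein, was at 2002.27, 770.68, 1766.11 and 2475.82 FPKM in the WT-DES samples. It was at 8931.79, 6689.38, 10749.3 and 5374.31 FPKM in the αERKO-DES samples. The lowest αERKO-DES sample was thus above the highest WT-DES sample, and *Svs4* differed by 2.25 ± 0.44 (adjusted p = 0.0017). Quantile normalisation forces every library to the same distribution. Under it the difference of *Svs4* was 0.36 and did not pass the test. Of the 12 secretion genes 11 were then higher, with a median of 3.01, below the 3.67 of the prostate lobe genes. *Svs5*, the most abundant gene of the list, rose from 1557 ± 629.5 to 8490 ± 2675 FPKM. The largest differences were those of *Svs1*, at 211 ± 187 against 5197 ± 1270 FPKM (5.12 ± 0.67), and of *Sva*, the seminal vesicle antigen, at 170 ± 137 against 4472 ± 1332 (5.09 ± 0.60). WT-DES was not uniform here. *Svs1* was at 447.37 and 273.24 FPKM in WT-DES samples 1 and 4 but at 80.21 and 44.95 in samples 2 and 3.

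*Svs3a* and *Svs3b* also rose, by 4.91 ± 0.62 and 4.90 ± 0.60. They are near-identical genes of the same cluster, and how their reads were split is uncertain. The genes *Svs3a*, *Svs3b*, *Svs4*, *Svs5* and *Svs6* lie near each other on chromosome 2, and all 5 rose, as did the rest of the list. The 60 bases before their RefSeq starts (GRCm38.p6) are shown because these hold the letters TATAAA, in capitals. The 5 were picked for this, so its presence in each is not a result. *Svs2*, which also rose (3.54 ± 0.47), holds TATAAA within 250 bases but not in this window on its strand, and is not shown.
Svs3a (chr2:164289207-164289266, plus strand): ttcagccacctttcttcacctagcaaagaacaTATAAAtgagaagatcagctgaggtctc
Svs3b (chr2:164256644-164256703, minus strand): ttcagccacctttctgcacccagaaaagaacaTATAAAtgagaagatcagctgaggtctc
Svs4 (chr2:164278308-164278367, minus strand): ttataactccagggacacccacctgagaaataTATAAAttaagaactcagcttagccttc
Svs5 (chr2:164332705-164332764, plus strand): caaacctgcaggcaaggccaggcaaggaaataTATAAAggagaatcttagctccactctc
Svs6 (chr2:164316691-164316750, plus strand): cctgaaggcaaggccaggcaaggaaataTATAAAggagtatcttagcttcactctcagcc
*Svs3a* and *Svs3b* shared 57 of these 60 bases when compared position by position. TATAAA, searched on both strands in the 250 bases before the start, was present in 6 of the 9 secretion promoters in the table, in 14.3% of all 27025 genes with a promoter and in 8.59% of the 11044 tested genes with one. It was also present in 6 of 8 promoters of squamous epithelium genes, which went the other way, as described below. The oestrogen response element GGTCANNNTGACC was found in 0.0666% of all promoters and in 1 promoter of the tested genes, so that these windows say nothing about the receptor.

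Genes of the prostate lobes behaved alike, with 6 of 7 higher and a median of 3.77. *Tgm4*, the prostate transglutaminase that cross-links the copulatory plug, was at 152.33, 27.35, 6.62 and 66.60 FPKM in the WT-DES samples and at 1957.72, 1748.66, 2013.63 and 1635.07 in the αERKO-DES samples (5.57 ± 0.78, adjusted p = 0.00026). *Pbsn*, probasin, was at 72.0 ± 68.8 and 1855 ± 279 FPKM. *Hoxb13*, a homeobox gene of the caudal embryo and prostate, rose from 7.88 ± 3.16 to 116 ± 20.3. Both vehicle groups held these genes at similar levels, with *Tgm4* at 1646 and 1755 and *Hoxb13* at 142.6 and 133.5 FPKM in WT-veh and αERKO-veh. The labelled tissue thus expressed *Tgm4* and *Hoxb13* more strongly in each other group than in WT-DES, and the part played by attached anterior prostate was not tested. *Sbp*, a spermine-binding protein gene of the ventral prostate, was at 9.96 ± 7.20 and 5.15 ± 1.19 FPKM and did not pass the test, whereas it was at 1621 ± 2065 FPKM in WT-veh and 269 ± 237 in αERKO-veh. Of 3 tested genes of the epididymis and vas deferens, *Aqp9*, a water and glycerol channel, was lower (-1.56) and the most abundant, *Crisp1*, was at 177 ± 153 and 111 ± 135 FPKM without passing the test.

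A wider list of androgen-responsive genes was split, with 9 of 14 higher and 4 lower (median 1.74). The largest rise was that of *Azgp1*, which encodes a secreted zinc-binding glycoprotein, from 2.16 ± 1.58 to 155 ± 23.8 FPKM (5.73 ± 0.30). In WT-veh and αERKO-veh *Azgp1* was at 101.3 ± 26.98 and 205 ± 54.05 FPKM. *Msmb*, a prostate secretory protein gene, was higher at 105 ± 100 against 20.1 ± 17.1 FPKM, but stayed far below its vehicle means of 863 and 1021 FPKM. Its call was lost without WT-DES sample 2 (2.18) or 3 (1.72), or without αERKO-DES sample 1 (2.22) or 2 (1.75). The 4 lower members were *Ndrg1*, at 14.2 ± 1.21 against 57.5 ± 7.33 (-1.94 ± 0.10), the prostatic acid phosphatase gene *Acpp* (-1.46), *Abcc4* (-0.84) and *Klk1* (-0.83). *Tmprss2* did not pass the test (0.04).

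The machinery that folds and exports secreted proteins rose without exception. All 25 genes of the secretory pathway were higher in αERKO-DES and none overlapped between groups, with a median of 1.97. The endoplasmic reticulum (ER) folding factors *Sdf2l1* (25.0 ± 2.91 to 351 ± 61.9 FPKM, 3.75 ± 0.14), *Creld2* (29.3 ± 2.87 to 286 ± 81.1) and *Manf* (31.7 ± 4.61 to 236 ± 38.7) changed most, followed by the chaperone *Hyou1* (30.0 ± 2.72 to 175 ± 20.3). *P4hb*, protein disulphide isomerase and the most abundant member, was at 853 ± 110 against 229 ± 24.4 FPKM (1.89 ± 0.13). Vehicle tissue was close to αERKO-DES, with *P4hb* at 816 and 712 FPKM in WT-veh and αERKO-veh.

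The ER stress response element, through which unfolded protein in the ER is known to raise folding genes, was searched for as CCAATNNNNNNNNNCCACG on both strands in the 250 bases before the start. It was present in 7 of the 20 secretory pathway promoters in the RefSeq table, against 0.13% of all promoters and 0.163% of those of tested genes. The match, in capitals, is shown with its flanks for these 7 genes because they are the part of the list that shares a sequence (GRCm38.p6, in the direction of the gene).
Hspa5 (chr2:34772013-34772055, plus strand): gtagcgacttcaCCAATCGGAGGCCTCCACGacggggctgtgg
Hsp90b1 (chr10:86705521-86705563, minus strand): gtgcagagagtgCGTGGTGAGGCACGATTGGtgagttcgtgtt
Calr (chr8:84847063-84847105, minus strand): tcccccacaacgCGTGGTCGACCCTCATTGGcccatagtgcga
Canx (chr11:50325788-50325830, minus strand): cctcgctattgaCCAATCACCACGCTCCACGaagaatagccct
Pdia6 (chr12:17266479-17266521, plus strand): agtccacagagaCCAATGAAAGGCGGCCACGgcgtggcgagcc
Dnajc3 (chr14:118937815-118937857, plus strand): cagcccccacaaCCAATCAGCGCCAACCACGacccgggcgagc
Creld2 (chr15:88819508-88819550, plus strand): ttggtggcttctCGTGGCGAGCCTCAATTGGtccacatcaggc
Of these, *Hspa5*, the central ER chaperone BiP, rose from 155 ± 12.7 to 768 ± 124 FPKM, *Calr*, calreticulin, from 194 ± 13.5 to 811 ± 137, and *Pdia6* from 109 ± 13.2 to 531 ± 76.5. *Canx*, calnexin, rose least of the 7, from 73.7 ± 4.46 to 146 ± 10.7 FPKM (0.98 ± 0.08). A match of letters is a description and does not show a site in use.

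Metabolic genes of the gland rose in part. Of 10 polyamine genes, 5 were higher, among them *Srm*, spermidine synthase (30.2 ± 8.07 to 167 ± 25.1 FPKM, 2.46 ± 0.19), *Odc1*, the first enzyme of the pathway (1.79 ± 0.08), *Amd1* (1.34), *Azin1* (1.07) and *Smox* (0.90), and *Paox*, a polyamine oxidase, was lower (-0.61). Seminal fluid carries fructose made through sorbitol, and of 7 tested genes of that pathway 3 were higher: sorbitol dehydrogenase *Sord* (40.2 ± 15.4 to 162 ± 13.0 FPKM), aldose reductase *Akr1b3* (16.9 ± 6.28 to 53.5 ± 5.21) and the glucose transporter *Slc2a1* (27.1 ± 7.10 to 86.5 ± 6.22). The hexokinase gene *Hk2* was lower (-0.95). Of 15 cholesterol genes, 8 were higher (median 0.76), led by *Fdps* at 21.4 ± 3.79 against 7.53 ± 2.85 FPKM, though only 3 were higher and 1 lower under the rescaling without the 20 most abundant genes.

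Smaller differences were seen for mitochondria and ribosomes. Respiratory chain genes had 11 of 22 higher (median 0.59), with *Ndufb8*, a complex I subunit, at 373 ± 54.5 against 155 ± 19.7 FPKM. Ribosomal protein genes had 12 of 22 higher (median 0.58), with *Rpl32* at 394 ± 59.5 against 189 ± 14.6 FPKM. Most of these differences were close to the 1.5-fold threshold and changed with scaling. Under the rescaling 1 respiratory chain gene and 3 ribosomal genes were higher. Under quantile normalisation 0 respiratory chain genes and 2 ribosomal genes were higher and 1 ribosomal gene, *Rps9*, was lower, at -0.58 where it was 0.56 as measured.

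**Figure D2:**
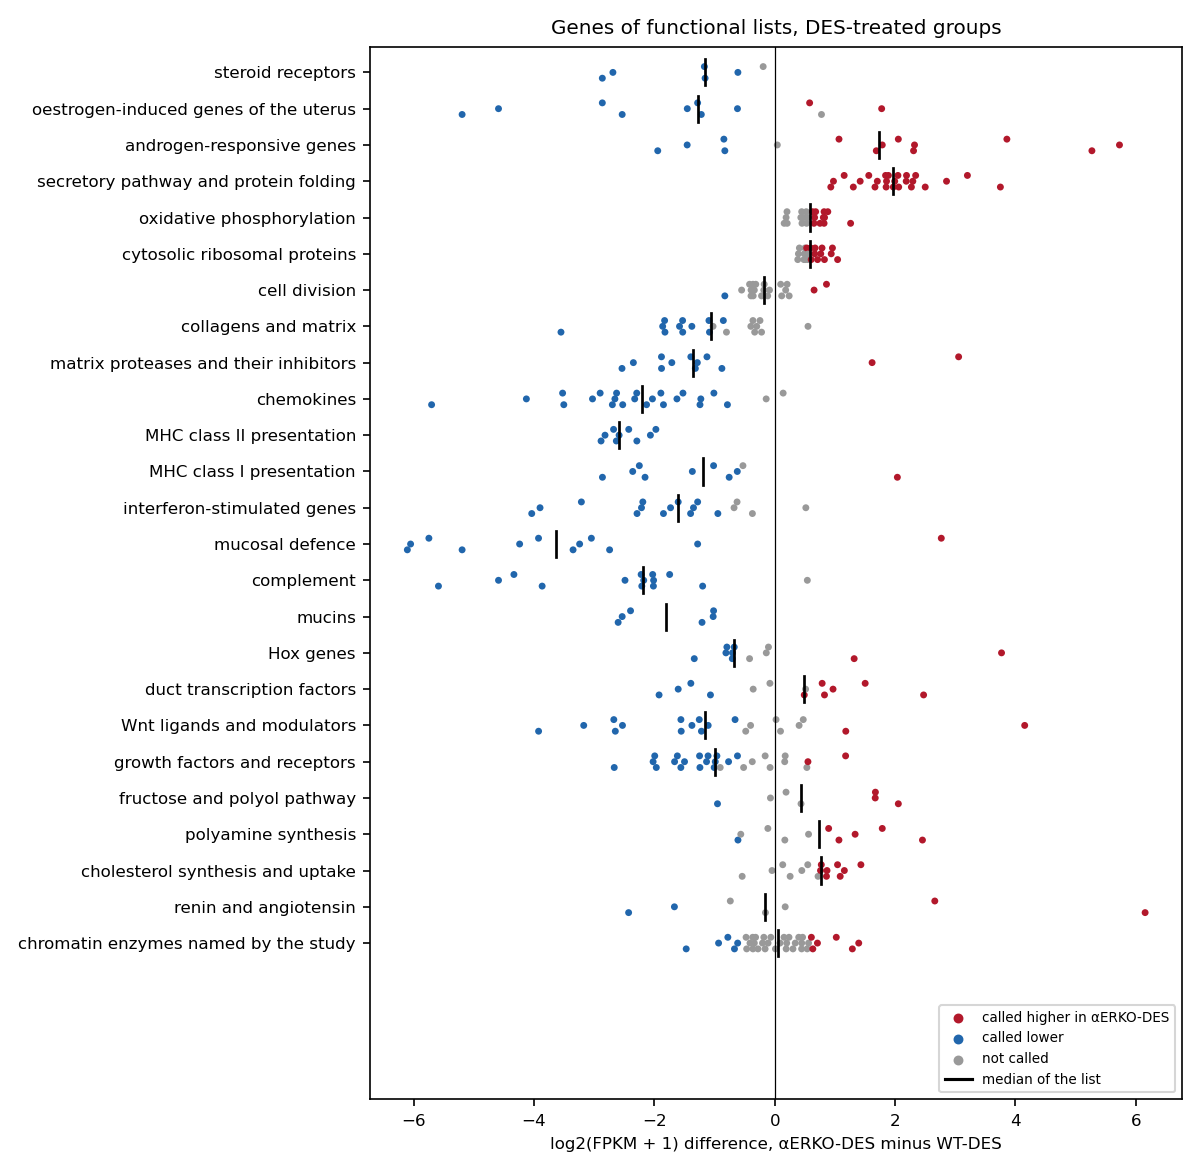
Difference between αERKO-DES and WT-DES in log2(FPKM + 1) for each tested gene of the functional lists, 1 point per gene, coloured by call, with a vertical bar at the median of the list. All 25 secretory pathway genes lie above 0, whereas most chemokine, complement and MHC class II genes lie below 0.

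General epithelial genes were mostly higher without ERα, and none of basal or squamous epithelium was. Whole tissue cannot tell fewer cells of a type from less RNA per cell, and this holds for every cell type list here. Of 13 general epithelial genes, 10 were higher (median 0.83), among them the keratin *Krt18* (254 ± 85.8 to 557 ± 78.9 FPKM), the tight junction gene *Cldn3* (116 ± 48.6 to 365 ± 65.5) and the epithelial regulators *Grhl2* (16.1 ± 0.42 to 47.6 ± 2.02) and *Esrp1* (24.6 ± 2.24 to 65.5 ± 7.75). Under quantile normalisation, and also under the rescaling, 4 genes of the list were higher. *Krt7*, a keratin of simple and transitional epithelia, was the exception, at 32.5 ± 4.11 against 161 ± 118 FPKM (-2.04 ± 0.39). It was at 335.67 FPKM in WT-DES sample 1 and at 81.70 to 120.79 in the other WT-DES samples.

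Basal cell genes were lower in 7 of 9 cases (median -1.08), and in 5 of the 7 above 1 FPKM in both groups. The desmosomal cadherins *Dsc3* and *Dsg3* were nearly absent from αERKO-DES, at 0.06 to 0.17 and 0.018 ± 0.022 FPKM against 1.45 to 4.67 and 2.62 ± 1.85 in WT-DES. *Krt15*, the most abundant, was at 67.2 ± 11.7 and 142 ± 68.8, and *Krt5* at 58.4 ± 4.90 and 139 ± 58.0 FPKM. *Krt15* lost its call without WT-DES sample 2 (-0.94) or αERKO-DES sample 3 (-0.84). Squamous epithelium genes were lower in 7 of 11 tested cases. Of the 6 above 1 FPKM in WT-DES alone 4 were lower, and of the other 5 there were 3. *Ivl*, involucrin of the cornified envelope, was at 0.390 ± 0.575 against 66.6 ± 76.5 FPKM (-5.13 ± 0.60), and *Sprr1a*, another envelope protein, at 16.2 ± 18.2 against 391 ± 305. The keratins *Krt4* and *Krt6a* differed by -3.80 ± 0.29 and -3.70 ± 0.71. The highest WT-DES sample was 1 for *Ivl* (181.24 FPKM) and *Sprr1a* (831.76), but 4 for *Krt4* (98.07) and *Krt6a* (72.22). The mean level of the squamous list was 5.28 in WT-DES sample 4 and 2.54 to 3.41 in the other WT-DES samples, against 0.91 to 1.39 in αERKO-DES and 1.07 to 1.69 over both vehicle groups.

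*Sprr2f*, a small proline-rich protein gene known to respond to oestrogen in the uterus, showed the largest fall of any gene with a mean of at least 10 FPKM and no overlap. It was at 309.47, 336.83, 90.44 and 393.97 FPKM in the WT-DES samples and at 0.67, 2.52, 0.60 and 0.55 in the αERKO-DES samples, a difference of -6.99 ± 0.47 (adjusted p = 4.6e-06). Its neighbour *Sprr2d* was at 124.15, 72.79, 4.27 and 138.63 FPKM against at most 0.34 FPKM (-5.54 ± 0.94). WT-DES sample 3 was thus the lowest of its group for both genes.

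A list of urothelium genes was added after the values were seen, because WT-DES sample 1 differed from the rest. Of its 7 genes 5 were lower in αERKO-DES, 3 of which were above 1 FPKM in WT-DES alone: *Upk1a* (-3.35), *Upk3a* (-5.25), *Upk3b* (-4.59), *Snx31* (-3.87) and *Krt20* (-3.40). *Upk2* and *Upk1b* did not pass the test (0.18 and -0.12). The mean level of the list was 7.88 in WT-DES sample 1, 4.16 to 5.15 in the other 3, 2.36 to 3.35 in αERKO-DES and 2.69 to 3.90 over both vehicle groups. Without WT-DES sample 1 the same number, 5, were lower and 1 was higher. Of 6 membrane-bound mucin genes tested, 5 were above 1 FPKM in WT-DES alone, so that a count of lower genes says little. Over the 7 mucin genes in the table the mean level was 1.48 to 2.10 in WT-DES, 0.23 to 0.46 in αERKO-DES and 0.30 to 0.55 over both vehicle groups. Examples were *Muc20* at 1.17 ± 0.634 against 12.7 ± 5.29 FPKM and *Muc15* at 0.172 ± 0.148 against 5.14 ± 0.434.

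**Figure D3:**
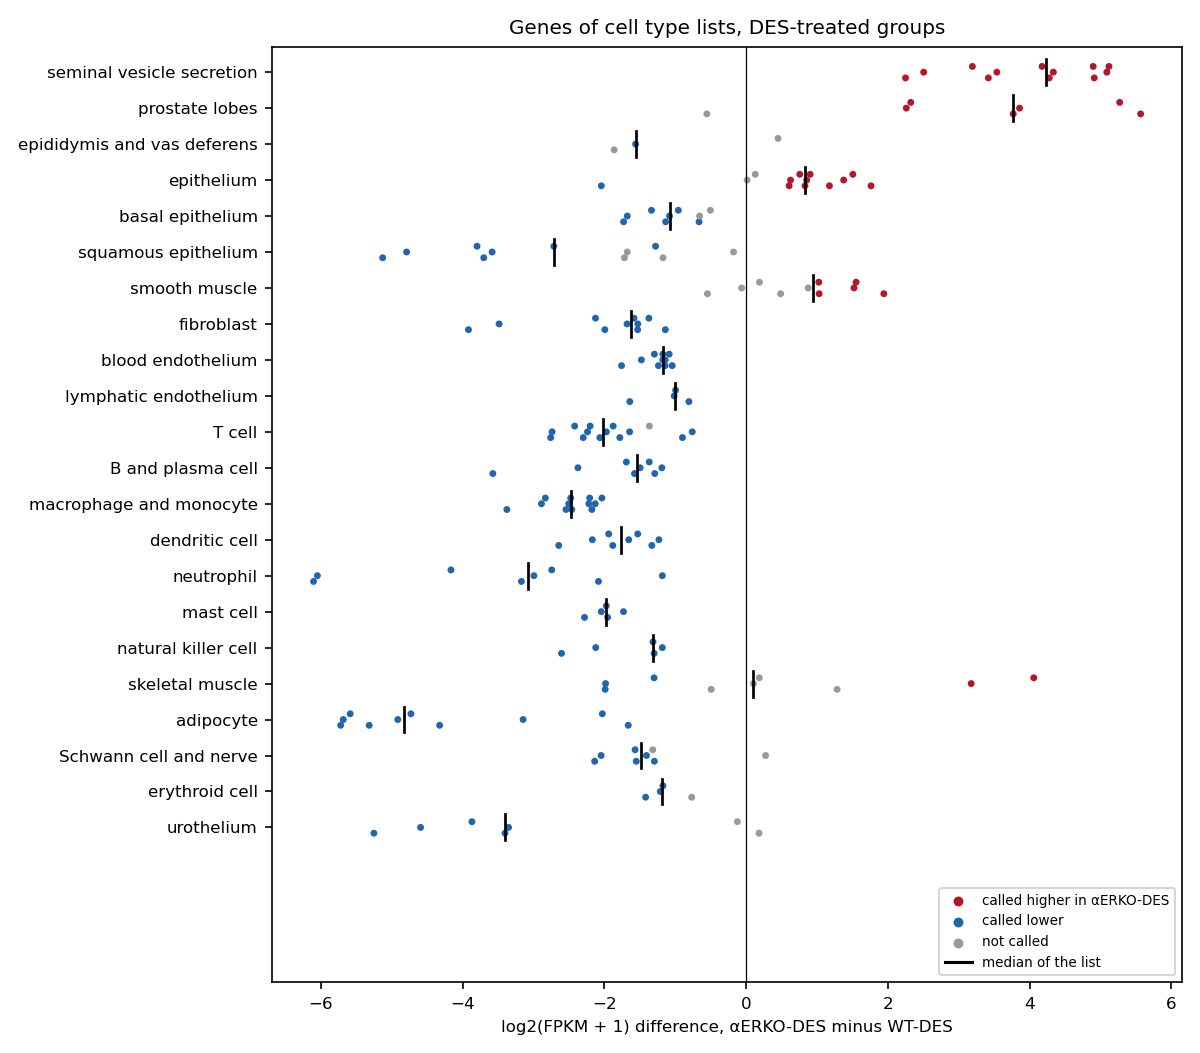
Difference between αERKO-DES and WT-DES in log2(FPKM + 1) for each tested gene of the cell type lists, 1 point per gene, coloured by call, with a vertical bar at the median of the list. Seminal vesicle secretion lies furthest to the right with a median of 4.23 and adipocyte genes furthest to the left with a median of -4.82.

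Fibroblast and matrix genes were mostly lower in αERKO-DES. All 10 fibroblast genes were lower in αERKO-DES (median -1.63), and none overlapped between groups. *Lum*, the matrix proteoglycan lumican, was at 12.7 ± 3.62 against 202 ± 16.9 FPKM (-3.92 ± 0.17, adjusted p = 9.3e-07). *Fbln1*, fibulin, was at 17.9 ± 2.13 against 214 ± 47.4, and *Dcn*, decorin and the most abundant, at 162 ± 13.7 against 710 ± 40.0 FPKM. *Pdgfra*, a growth factor receptor of mesenchymal cells, was at 9.68 to 12.44 FPKM against 36.74 to 53.26.

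Collagens and other matrix genes were lower in 11 of 20 cases and higher in none (median -1.05), and under quantile normalisation and the rescaling 18 and 19 were lower. *Col14a1*, a fibril-associated collagen, fell furthest, from 64.1 ± 20.2 to 4.46 ± 1.06 FPKM (-3.55 ± 0.21), followed by the matrix proteins *Tnc*, tenascin C (-1.86 ± 0.40), and *Postn*, periostin, at 26.9 ± 3.31 against 100 ± 29.1 FPKM. *Sparc*, the most abundant of the list, was at 516 ± 34.4 and 612 ± 43.7 FPKM and did not pass the test. Matrix proteases and their inhibitors gave 10 of 12 lower (8 of the 10 above 1 FPKM in both groups), including *Mmp11* (-2.54 ± 0.15), *Mmp3* (-2.35 ± 0.37) and *Mmp9* (-1.88 ± 0.41). The 2 exceptions were *Timp1*, an inhibitor of metalloproteinases, at 279 ± 40.7 against 35.3 ± 16.6 FPKM (3.06 ± 0.31), and *Mmp7*, the epithelial matrilysin, at 391 ± 42.6 against 140 ± 73.3.

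Wnt ligands and their secreted modulators were lower in 12 of 20 cases and higher in 2, and lower in 6 of the 14 above 1 FPKM in both groups. The gene with the smallest p among those described was *Wif1*, which encodes a secreted inhibitor that binds Wnt ligands. *Wif1* rose from 6.71 ± 0.462 FPKM with ERα to 136 ± 7.05 without it (4.15 ± 0.07, adjusted p = 2.5e-08), with 112 and 124 in WT-veh and αERKO-veh. The frizzled-related inhibitors *Sfrp4* (-3.92 ± 0.24) and *Sfrp1* (-2.67 ± 0.10) and the dickkopf family member *Dkk3* (-3.17 ± 0.16) went the other way. *Wnt10a* was the only ligand of the list that was higher, at 7.82 ± 1.31 against 2.89 ± 0.630 FPKM. Growth factors and receptors were lower in 17 of 27 cases (14 of the 24 above 1 FPKM in both groups), led by *Igfbp3*, which binds insulin-like growth factors (57.8 ± 7.80 against 380 ± 96.2 FPKM), *Hgf*, hepatocyte growth factor (-2.02 ± 0.16), and *Areg*, amphiregulin, a ligand of the EGF receptor (-1.97 ± 0.18). The 2 that were higher belong to the insulin-like growth factor system too, *Igfbp5* (1.18 ± 0.20) and the receptor *Igf1r* (0.55 ± 0.08). *Igf1r* lay so near the 1.5-fold threshold that its call was lost without WT-DES sample 3 (0.52) or 4 (0.55) and without αERKO-DES sample 3 (0.53) or 4 (0.51).

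Genes of vessels and nerves were mostly lower. All 10 blood endothelium genes (median -1.18) and all 4 tested lymphatic genes (3 of 3 above 1 FPKM in both groups) were lower, with *Vwf*, von Willebrand factor, at 6.42 ± 0.356 against 24.4 ± 4.96 FPKM, *Pecam1* at 25.7 ± 2.03 against 62.6 ± 10.5, and the lymphatic receptor *Lyve1* at 3.41 ± 0.929 against 12.8 ± 3.15. The other lymphatic genes were *Pdpn* (-0.81), *Prox1* (-1.02) and *Flt4*, at 2.23 ± 0.289 against 5.45 ± 0.636 FPKM. Schwann cell and nerve genes were lower in 6 of 8 cases, and in 4 of the 6 above 1 FPKM in both groups, including the Schwann cell regulator *Sox10*, at 2.77 ± 0.625 against 10.5 ± 3.55 FPKM, while *Ncam1* (0.27) was not called. Of 4 tested erythroid genes 3 were lower, *Hbb-bt* (-1.42), *Hbb-bs* (-1.21) and *Hba-a2* (-1.18), and *Alas2* was not called (-0.77). *Hbb-bt* and *Hbb-bs* are near-identical copies of each other, so their separate values are uncertain. The value of *Hba-a2* is uncertain too, since its copy *Hba-a1* has no entry.

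The count of smooth muscle genes changed with single samples. Of 10 genes 5 were higher in αERKO-DES, namely *Actg2* (1.94 ± 0.65), *Des*, desmin (1.55 ± 0.60), *Cnn1*, calponin (1.52 ± 0.46), *Acta2*, smooth muscle actin (1.03 ± 0.26), and *Tagln*, transgelin and the most abundant at 930 ± 133 against 510 ± 318 FPKM (1.02 ± 0.35). The mean level of the list was 7.81 in WT-DES sample 1 and 5.56 to 6.22 in WT-DES samples 2 to 4, against 7.14 to 7.27 in αERKO-DES, so that the groups overlapped in every gene. Without WT-DES sample 1 there were 8 of 10 higher, and without WT-DES samples 2, 3 or 4 in turn there were 2, 2 and 3. Leaving out αERKO-DES samples 1, 2 or 3 in turn gave 2, 3 and 2, and under quantile normalisation there were 0, with *Tagln* at -0.05.

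Skeletal muscle genes were split, with *Acta1*, skeletal actin, at 551 ± 82.3 against 88.0 ± 98.6 FPKM (3.17 ± 0.59) and the troponin *Tnnc2* at 145 ± 28.2 against 8.38 ± 3.86 (4.06 ± 0.32), while *Tnnt3* (-1.99), *Tnni2* (-1.98) and *Myl1* (-1.30) were lower. Both *Acta1* and *Tnnc2* were at similar levels in the vehicle groups, at 574 and 536 FPKM and at 228 and 285 FPKM. The list as a whole varied in the vehicle groups, from 1.94 to 6.70 in mean level, and much less in the DES groups, from 1.32 to 2.19.

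Fat cell genes were far lower without ERα. All 10 adipocyte genes were lower in αERKO-DES, of which 6 were above 1 FPKM in both groups, and no gene overlapped between groups. *Adipoq*, the hormone adiponectin, was at 79.17, 130.47, 65.06 and 181.22 FPKM in the WT-DES samples and at 1.19, 1.64, 1.09 and 0.35 in the αERKO-DES samples (-5.72 ± 0.33, adjusted p = 2.3e-06). *Fabp4*, the fatty acid carrier of adipocytes, was at 549 ± 171 and 26.8 ± 9.81 FPKM, *Cfd*, adipsin, at 494 ± 182 and 11.6 ± 8.03, and the lipid droplet gene *Cidec* at 86.4 ± 42.8 and 1.13 ± 0.839. *Retn*, resistin, differed by -5.69 ± 0.39. Among the genes with the largest falls were also *Car3*, the carbonic anhydrase abundant in fat and muscle (-6.03 ± 0.46), and *Cyp2e1*, a cytochrome P450 (-5.37 ± 0.40).
αERKO-DES lay below not only WT-DES but also both vehicle groups in this list. Its mean level was 1.00 to 1.89 in αERKO-DES, 5.27 to 6.62 in WT-DES, while WT-veh spanned 3.10 to 5.38 and αERKO-veh 2.15 to 5.73. How much fat was left on each gland is not recorded in the sources used here, and its part in these values was not tested.

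Genes of white blood cells were lower in αERKO-DES. Over 7 lists of leukocyte types 60 genes were tested, but 41 of them were above 1 FPKM in WT-DES alone. Of the 19 that were above it in both groups all 19 were lower, 10 of them macrophage genes. Of the 41, the gene not called was *Cd8a*, at 0.560 ± 0.122 against 4.41 ± 4.20 FPKM (adjusted p = 0.062). The mean level over the genes of a list, whether tested or not, did not overlap between the groups in any of the 7 lists. For macrophages and monocytes it was 5.33 to 5.64 in WT-DES and 2.85 to 3.23 in αERKO-DES, and for dendritic cells 2.00 to 3.20 and 0.80 to 0.97. Cells of these types tend to enter tissue together, so the lists are not independent of each other.

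Neutrophil genes were near 0 in αERKO-DES, where the mean level of the list was 0.17 to 0.25. *S100a9*, a subunit of the calcium-binding protein calprotectin, was at 414.6, 41.4, 46.72 and 97.37 FPKM in the WT-DES samples and at 0.57, 0.42, 0.30 and 0.27 in the αERKO-DES samples (-6.11 ± 0.64, adjusted p = 4.7e-05), and its partner *S100a8* differed by -6.05 ± 0.60. WT-DES sample 1 was the highest by a wide margin, as it was for the list, with a mean level of 5.45 against 2.97 to 3.54 in the other WT-DES samples. The other leading genes were *Retnlg* (-4.17 ± 0.65) and *Ngp* (-3.17 ± 0.57). Macrophage genes that were lower included *Lyz2*, lysozyme, at 375 ± 52.1 against 35.8 ± 9.47 FPKM, the mannose receptor *Mrc1* at 19.9 ± 1.98 against 1.83 ± 0.356 (-2.89 ± 0.12), *Cd14* at 45.7 ± 21.1 against 5.14 ± 0.818 and *Emr1* at 24.3 ± 4.33 against 3.33 ± 0.678.

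Lymphocyte genes were unevenly spread within WT-DES. The mean level of the T cell list was 3.39 and 3.26 in WT-DES samples 2 and 3 but 1.63 and 1.93 in samples 1 and 4, all above the 0.64 to 0.78 of αERKO-DES. The co-receptor *Cd4* was at 10.4 ± 7.06 against 0.430 ± 0.104 FPKM, *Cd2* at 10.3 ± 6.98 against 0.425 ± 0.138 and the T cell receptor subunit *Cd3g* at 18.6 ± 12.4 against 2.60 ± 0.543. *Igj*, the chain that joins antibody molecules, was at 17.5 ± 16.9 against 0.098 ± 0.038 FPKM (-3.58 ± 0.60). An immunoglobulin heavy chain entry, *Igh-A (1g2)*, was at 39.57, 225.41, 51.76 and 101.98 FPKM in WT-DES and at 0.10 to 0.57 in αERKO-DES. Among dendritic cell genes *Cd209a* (-2.65 ± 0.29) and *Ccr7* (-2.17 ± 0.31) fell most. For mast cells the list level was 2.35 to 2.74 in WT-DES and 0.60 to 1.05 in αERKO-DES, and *Kit* (-1.96) was its only gene above 1 FPKM in both groups. The natural killer cell list was at 1.68 or more in WT-DES and at 0.61 to 0.79 in αERKO-DES, and *Gzma* (-2.12) was its only gene of that kind.

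**Figure D4:**
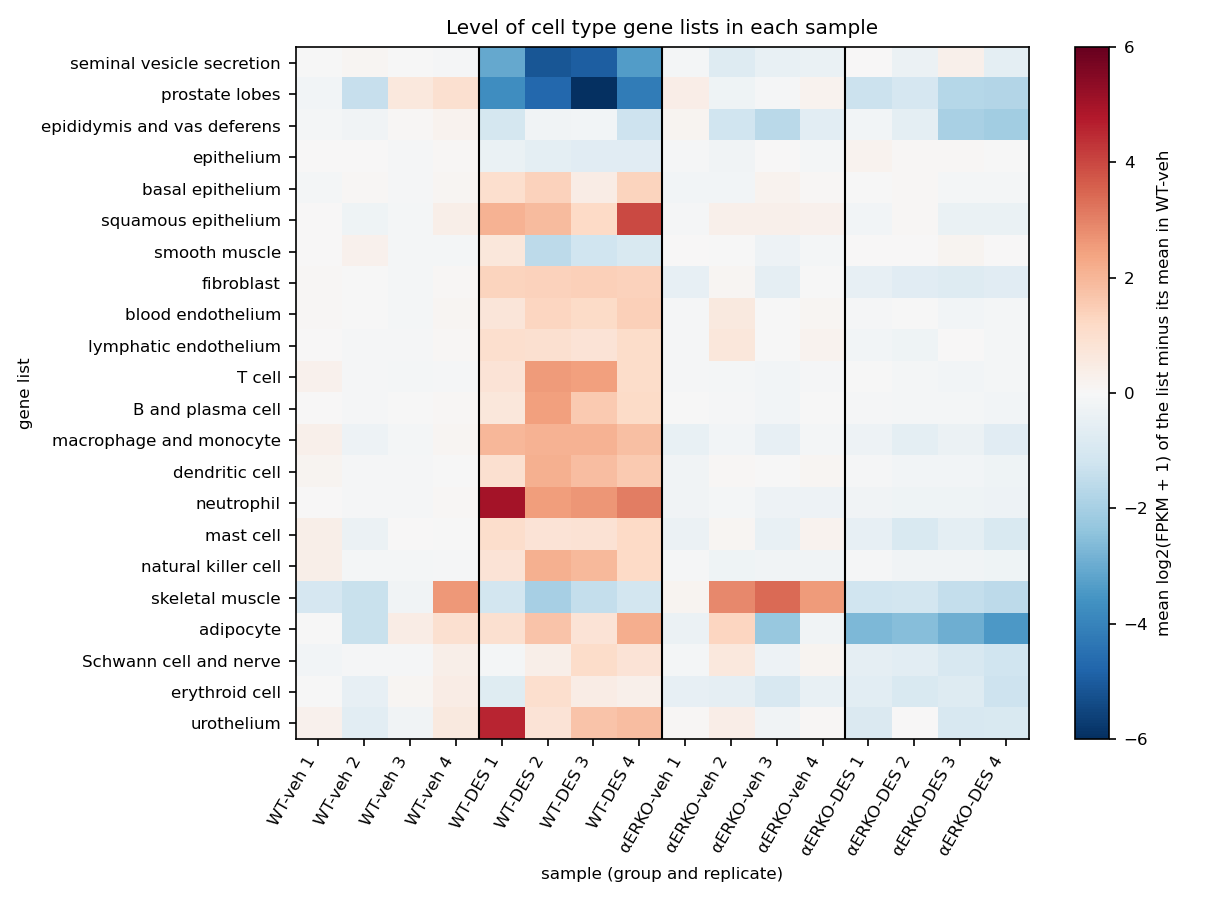
Mean log2(FPKM + 1) of the genes of each cell type list in each of the 16 samples, shown by colour as the difference from the mean of the WT-veh samples for that list, with samples in columns by group and lists in rows. WT-DES columns differ from the other 3 groups in most rows, the αERKO-DES columns are lowest for adipocyte genes, and WT-DES sample 1 differs from the other WT-DES samples for urothelium, smooth muscle and neutrophil genes.

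Chemokines, the signals that draw leukocytes, were lower too. Of 24 chemokine genes, 22 were lower and 0 higher, and of the 10 above 1 FPKM in both groups 8 were lower. The 2 not called were *Cx3cl1* (-0.14) and *Cxcl16* (0.14). *Ccl8*, which attracts monocytes and other leukocytes, was at 69.68, 134.39, 124.59 and 159.72 FPKM in WT-DES and at 2.22, 0.29, 1.83 and 1.24 in αERKO-DES (-5.70 ± 0.33, adjusted p = 2.3e-06). *Cxcl9*, an attractant of T cells, was at 0.970 ± 0.158 against 43.0 ± 31.9 FPKM, *Ccl6* at 2.29 ± 0.895 against 37.4 ± 12.6 and the neutrophil attractant *Cxcl5* at 0.0075 ± 0.015 against 17.1 ± 18.1. *Cxcl12*, a chemokine of the stroma and the most abundant, was at 74.7 ± 7.68 against 316 ± 79.2 FPKM.

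Complement was lower in 13 of 14 tested genes (median -2.19), and in 11 of the 12 above 1 FPKM in both groups, with *Cfb*, factor B, at 2.32 ± 0.162 against 67.4 ± 16.1 FPKM (-4.33 ± 0.16) and *C4b* at 3.15 ± 0.478 against 60.9 ± 16.6. *C1ra* was not called, at 0.54. Mucosal defence genes were lower in 11 of 12 tested cases, and in 5 of the 6 above 1 FPKM in both groups, including *Saa3*, an acute phase protein, at 0.352 ± 0.178 against 92.5 ± 80.7 FPKM (-5.75 ± 0.51). The exception was *Defb1*, an epithelial defensin, which rose from 21.6 ± 7.75 to 148 ± 35.3 FPKM (2.77 ± 0.27) and was at 263 and 218 FPKM in WT-veh and αERKO-veh. *Bpifa1* was listed at 0 in all 8 samples.

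Antigen presentation was lower for class II in 9 of 9 genes, of which 6 were above 1 FPKM in both groups. *Cd74*, the invariant chain, was at 154 ± 36.5 against 652 ± 181 FPKM, *H2-Ab1* at 54.2 ± 14.7 against 395 ± 128, and the transactivator *Ciita* at 0.580 ± 0.102 against 11.8 ± 6.20 (-2.89 ± 0.33). For class I, 8 of 10 genes were lower (7 of the 9 above 1 FPKM in both groups), led by the transactivator *Nlrc5* (-2.86 ± 0.28), the immunoproteasome subunit *Psmb8* (-2.36 ± 0.22) and the peptide transporter *Tap1* (-2.15 ± 0.28). *B2m*, the light chain of class I, went the other way, from 743 ± 114 to 3097 ± 778 FPKM (2.04 ± 0.24), although it was no longer called under quantile normalisation. In the vehicle groups *B2m* was at 2922 and 2498 FPKM, near the αERKO-DES level. *H2-K1* was not called, at -0.53.

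Interferon-stimulated genes were lower in 13 of 17 cases (median -1.60). *Iigp1*, an interferon-induced GTPase, was at 3.75 ± 0.487 against 84.5 ± 43.1 FPKM (-4.04 ± 0.32), *Gbp2*, a guanylate-binding protein, at 5.88 ± 0.408 against 108 ± 45.3 (-3.90 ± 0.25) and *Ifit3* at 6.39 ± 0.663 against 40.9 ± 25.9. *Ubd*, a ubiquitin-like gene that responds to interferon γ, fell from 37.88, 149.2, 97.98 and 28.01 FPKM to at most 0.51 FPKM (-5.69 ± 0.48). The genes not called were *Oas1a* (-0.68), *Mx1* (-0.63), *Usp18* (0.52) and *Bst2*, the most abundant of the list, at 117 ± 25.4 and 152 ± 35.6 FPKM. The interferon response element, searched for as GAAANNGAAAC on both strands in the 250 bases before the start, was present in 8 of the 12 promoters of this list in the table, against 0.796% of all promoters and 0.824% of those of tested genes. *Oas1a* and *Bst2* hold it too and were not called. The match, in capitals, is shown with its flanks for the other 6 because these were the lower genes of the list that hold it (GRCm38.p6, in the direction of the gene, and overlapping matches are run together).
Gbp2 (chr3:142620591-142620625, plus strand): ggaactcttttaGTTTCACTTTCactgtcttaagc
Gbp3 (chr3:142559992-142560026, plus strand): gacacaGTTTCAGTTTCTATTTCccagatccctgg
Ifit3 (chr19:34583394-34583428, plus strand): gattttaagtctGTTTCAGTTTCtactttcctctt
Ifit1 (chr19:34640791-34640825, plus strand): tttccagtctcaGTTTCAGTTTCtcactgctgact
Isg15 (chr4:156200868-156200902, minus strand): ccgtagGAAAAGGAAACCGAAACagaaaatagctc
Irgm1 (chr11:48871422-48871456, minus strand): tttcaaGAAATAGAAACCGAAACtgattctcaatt
*Isg15*, a ubiquitin-like protein, was at 12.36 to 19.25 FPKM against 22.28 to 89.86, and the antiviral gene *Ifit1* at 3.84 ± 0.716 against 19.4 ± 13.6. The mean level of the list was highest in WT-DES samples 2 and 3, at 5.74 and 5.09, which were also the samples with the highest T cell levels.

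Transcription factors that pattern the ducts were split. Of 13 tested, 6 were higher, among them *Gata2*, at 359 ± 15.1 against 64.7 ± 12.8 FPKM (2.47 ± 0.14), and *Gata3*, at 139 ± 3.45 against 48.8 ± 8.62, while under the rescaling only 2 were higher. Among the lower ones were *Pax8* (-1.92), *Msx2* (-1.39) and *Eya1* (-1.07). Of 11 tested Hox genes 6 were lower (5 of the 10 above 1 FPKM in both groups), with *Hoxc10* (-1.34 ± 0.19) and *Hoxd11* (-0.81 ± 0.14) furthest below, and 2 were higher, *Hoxb13* as given above and *Hoxd9*, at 52.4 ± 4.19 against 20.6 ± 3.53 FPKM.

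Of 38 chromatin enzymes tested, 6 were higher and 5 lower, with a median of 0.05, which is a share under the background of 53.0%. Under the rescaling without the 20 most abundant genes 3 were higher and 13 lower (median -0.32). The samples of the groups did not overlap in 16 members that were higher and 10 that were lower, most of them without passing the 1.5-fold threshold, against 67.1% of all genes. This list was chosen by the study on these samples and is not independent evidence. The higher members were *Setdb2*, a putative histone methyltransferase (1.40 ± 0.24), the deacetylase *Hdac10* (1.29 ± 0.07), the H3K9 methyltransferase *Ehmt1* (1.02 ± 0.07), *Kdm4b* (0.71), *Sirt4* (0.63) and *Sirt5* (0.61). The lower members were the deacetylase *Hdac9*, at 0.557 ± 0.123 against 3.38 ± 0.871 FPKM (-1.47 ± 0.17), the coactivator *Ncoa3* (-0.93 ± 0.10), *Crebbp* (-0.78), *Hdac4* (-0.67) and *Suv39h1* (-0.62). *Setdb2* also differed without DES, at 13.7 FPKM in αERKO-veh against 4.16 in WT-veh, and its difference did not change detectably with DES (interaction -0.09, adjusted p = 0.81).

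Few cell division genes were called, with *Rrm2* (0.86 ± 0.14) and *Mcm2* (0.65 ± 0.09) higher and *Bub1b* (-0.83 ± 0.21) lower among 21. Without WT-DES sample 1, however, 5 were lower, and 9 were lower under the rescaling without the 20 most abundant genes. Immediate early genes, the fast transcription factors of stimulated cells, were lower in 10 of 18 cases (7 of the 15 above 1 FPKM in both groups), with *Egr2* (-2.03 ± 0.28), *Ier3* at 14.6 ± 2.00 against 53.8 ± 17.7 FPKM and *Fos* at 5.13 ± 0.457 against 16.2 ± 4.48. The 5 higher members were *Atf3* (1.41 ± 0.19), *Myc* (0.92 ± 0.10), *Klf2* (0.91), *Jund* (0.87) and *Nr4a1* (0.59), whereas under the rescaling 1 was higher and 11 were lower. Of the short non-coding RNA genes 3 were tested, *Rmrp* (-1.32), *Rpph1* (-0.70) and *Snora74a* (-0.54), and they were not called, with spreads within groups as large as their means.

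The renin system held one of the largest rises of all. *Ren2*, a renin gene of the mouse, was at 5.65, 0.70, 0.24 and 3.68 FPKM in the WT-DES samples and at 236.9, 200.53, 173.55 and 201 in the αERKO-DES samples (6.16 ± 0.49, adjusted p = 1.1e-05). In WT-veh and αERKO-veh *Ren2* was at 106.2 ± 30.72 and 127.6 ± 80.71 FPKM. C57BL/6 mice are known to carry its near-identical copy *Ren1* alone, so the entry may hold reads of *Ren1*, which has no entry of its own here. *Ace*, the angiotensin-converting enzyme, was at 186 ± 6.13 against 30.9 ± 14.1 FPKM. *Agtr2*, an angiotensin receptor, and *Agt*, angiotensinogen, were lower (-2.43 ± 0.20 and -1.67 ± 0.27), and both were above 1 FPKM in WT-DES alone.

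The 15 largest rises also held genes of several other kinds. *Dnase2b*, a DNase, was at 24.82, 5.24, 4.51 and 13.69 FPKM in WT-DES and at 672.52, 672.42, 1060.25 and 705.82 in αERKO-DES (6.16 ± 0.47, adjusted p = 8.0e-06). In WT-veh and αERKO-veh *Dnase2b* was at 445.0 ± 61.31 and 583.1 ± 22.87 FPKM. *Orm3*, an orosomucoid gene, rose by 5.89 ± 0.39, *Gsdma*, a gasdermin, by 5.41 ± 0.36, *Fgl1*, a fibrinogen-like gene, by 5.25 ± 0.47, *Pnliprp1*, a pancreatic lipase-related gene, by 5.16 ± 0.56 and *Derl3*, which exports misfolded proteins from the ER, by 4.92 ± 0.26. Uncharacterised entries among the 15 largest rises were *9530053A07Rik* (6.03 ± 0.82), *9530002B09Rik* (5.73 ± 0.60) and *2700070H01Rik* (5.29 ± 0.29). *Sptssb*, which encodes a small subunit of serine palmitoyltransferase, was among the largest falls (-5.27 ± 0.91), at 308.1 FPKM in WT-DES sample 1 and 18.79 to 81.84 in the others, against 0.09 to 7.38 in αERKO-DES.

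The same genotypes were then compared without DES, to ask which of these differences were present without the exposure. αERKO-veh and WT-veh differed in 1219 of 14627 tested genes (8.33%), against 53.0% with DES. Whether a difference between genotypes itself changed with DES was tested as the interaction, (αERKO-DES minus WT-DES) minus (αERKO-veh minus WT-veh), over all 16 samples. It was called in 8966 of 15752 genes (56.9%), above 0 in 4280 (27.2%) and below 0 in 4686 (29.7%). Rescaled without the 20 most abundant genes, 1956 were above and 7228 below 0, with the median of all genes at -0.51. The interaction was called for *Esr1* (-1.75), *Ltf* (-4.66) and *Svs4* (2.89), and by list for 12 of 12 secretion genes, 25 of 25 secretory pathway genes and 9 of 10 fibroblast genes, all in the direction of the difference with DES. For the 38 chromatin enzymes it was called above 0 in 6 and below 0 in 12. Among the 4 erythroid genes, 3 of them lower with DES, it was called in 0. Of these genes 2 were also lower without DES, *Hba-a2* (-0.85) and *Hbb-bs* (-0.82).

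Of all genes tested without DES, 4.85% were higher in αERKO-veh and 3.48% lower, and some lists departed from this. Of the secretion genes 3 of 12 were lower in αERKO-veh, where *Svs4* was at 6692 ± 1274 against 10330 ± 438.8 FPKM in WT-veh. Ribosomal protein genes were lower in 9 of 22 cases and macrophage genes in 4 of 12. Chromatin enzymes were higher in 6 of 38.

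Of the 14391 genes tested in both comparisons, which share no samples, 1187 were called without DES and 7167 with DES. The 710 called in both were 59.8% of the former and 9.91% of the latter. Only 287 of the 710 went the same way, 151 higher and 136 lower in αERKO, while 256 were higher in αERKO-veh but lower in αERKO-DES and 167 the reverse. The differences without DES also followed transcript length, with a Spearman rho of 0.588 across genes against -0.14 with DES, and across genes the differences with and without DES had a rho of -0.231. These are descriptions over genes, which share libraries and are not independent. The part of length in the comparison without DES, and in its list counts given above, was not tested further here. The interaction subtracts that comparison, and with a correction for transcript length it was called in 7805 of 14856 genes.

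**Figure D5:**
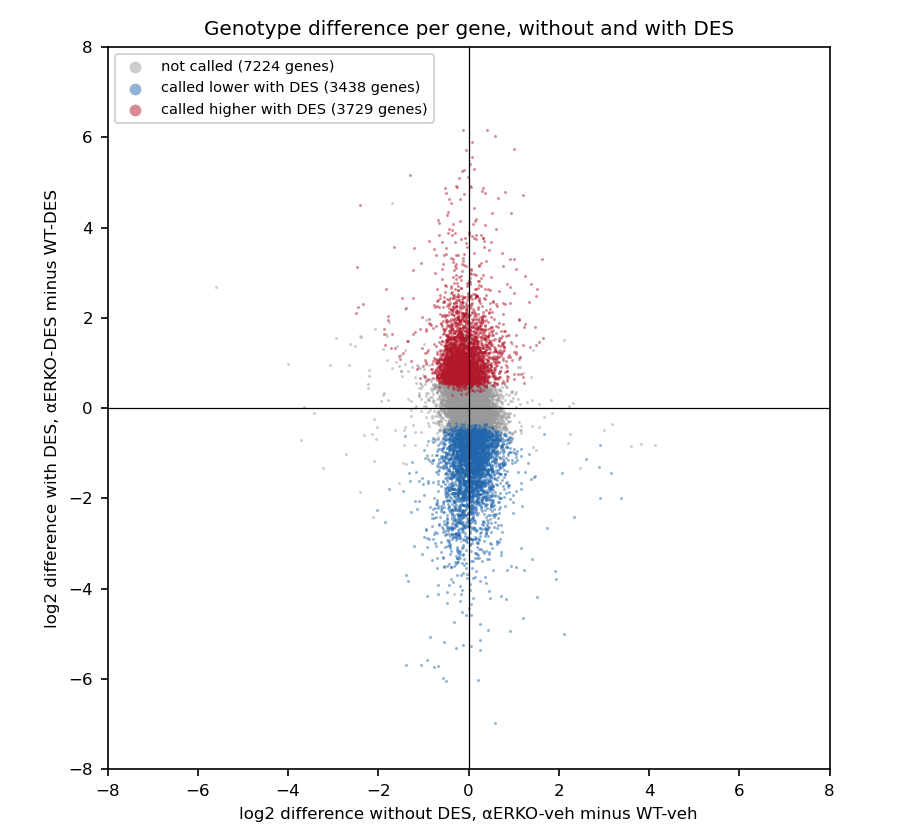
Difference between genotypes without DES (horizontal axis, αERKO-veh minus WT-veh) and with DES (vertical axis, αERKO-DES minus WT-DES) in log2(FPKM + 1), 1 point per gene tested in both, coloured by the call with DES. Points spread far along the vertical axis and little along the horizontal one, with 3729 genes called higher, 3438 lower and 7224 not called with DES.

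The largest interactions were those of *Sprr2f* (-7.57), the table entry *BC114417* (-7.12), *Car3* (-6.24), the water channel *Aqp3* (-5.87) and the respiratory chain gene *Cox8b* (-5.86) below 0. Above 0 they were those of *AK186242* (6.91), *Pnliprp1* (6.47), *Ren2* (6.27), *Orm3* (5.80) and *9530002B09Rik* (5.78). For *AK186242* every WT-DES sample was listed at 0, as was 1 αERKO-DES sample, and the other 3 were at 38.92 to 117.78 FPKM, so that no fold is given. *BC114417* was at 25.31 to 65.60 FPKM in WT-DES and listed at 0 in 3 of the 4 αERKO-DES samples.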

How the data were processed

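RNA-seq was made by the authors from seminal vesicles of 4 groups with 4 samples each. They aligned paired-end reads to the mouse genome (mm10) with TopHat2 2.0.4 and quantified genes with Cufflinks 2.0.2, and the deposited table holds the resulting FPKM values. The gene annotation and any scaling between libraries are not given in the sources used here. FPKM keeps no read counts, so the depth is unknown and precision rests on the spread of 4 samples.

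Values were analysed as log2(FPKM + 1) with limma 3.58.1 in R 4.3.3 (eBayes with a variance trend, Benjamini-Hochberg adjustment over all genes tested). The αERKO-DES and WT-DES samples were fitted alone, the vehicle groups alone, and the interaction over all 16 samples. Genes with a mean FPKM above 1 in either group were tested and called DEGs at a 1.5-fold or larger ratio of the means and an adjusted p of 0.05 or less. Interactions were called at the same adjusted p and a 1.5-fold difference. The fit was tested on simulated data.

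The 49 gene lists, their members and the rules were chosen with earlier results of these data known. Lists are described by counts and medians beside the background of all genes, without a test of the list. The list level of a sample is the mean log2(FPKM + 1) of its genes. Genes named were *Esr1*, *Ltf* and *Svs4*, the 15 DEGs with the largest difference in each direction (mean FPKM of at least 10 in either group, no overlap between groups), the most abundant member of each list, up to 4 DEGs of it with the largest difference and up to 2 against its median, and the 5 largest interactions in each direction. Other list members named were chosen after their values were seen. Some list members are not reported here by name, though the list counts include them. Gene coordinates are from GENCODE M21 (GRCm38), matched by symbol for 22557 genes and by synonym for 1018, and promoter sequences from RefSeq (GRCm38.p6). Neither is known to be the annotation behind the table.

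Alternatives were a pseudocount of 0.1, no minimum and a minimum above 5 on mean FPKM, all 16 samples in 1 model, no variance trend, sample weights, a replicate block, median-ratio and quantile scaling, scaling to equal summed FPKM with and without the 20 genes of highest mean, an adjusted p of at most 0.01, the fold taken from the log2 difference, a transcript length correction and leaving out each sample.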

Additional observations from a re-analysis of the deposited data

Results flagged for a closer look

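Single samples lay far from the other 3 of their group, with a ratio of the gap to the group's range above Dixon's 95% critical value, in 6 of 98 list levels and 7 of 73 gene values tested. Chance gives about 1 in 20. Among list levels, αERKO-DES sample 3 was highest for smooth muscle (0.861), αERKO-DES sample 1 highest for natural killer cells (0.846), WT-DES sample 3 lowest for oestrogen-induced genes (0.911), αERKO-DES sample 4 lowest for matrix proteases (0.889), WT-DES sample 2 highest for complement (0.891) and αERKO-DES sample 2 highest for urothelium (0.928). Among genes, *Sprr2f* was lowest in WT-DES sample 3 (0.835) and highest in αERKO-DES sample 2 (0.909), a sample that was also highest for *Sptssb* (0.925) and *Aqp3* (0.912). *Retn* was lowest in αERKO-DES sample 4 (0.837), and αERKO-DES sample 3 was highest for *Dnase2b* (0.894) and *BC114417* (1.0, since the other 3 were listed at 0).

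The difference between genotypes changed with DES, by the interaction term of limma over 16 samples, in 8966 of 15752 genes. It was called for all 37 genes that were named for the target, for the largest differences or for the largest interactions, and these values on the log2(FPKM + 1) scale were chosen for their size. Below 0 they were *Esr1* (-1.748), *Ltf* (-4.655), *Sprr2f* (-7.571), *S100a9* (-5.74), *S100a8* (-5.546), *Car3* (-6.239), *Igh-A (1g2)* (-5.422), *Saa3* (-4.984), *Adipoq* (-5.051), *Ccl8* (-4.639), *Ubd* (-5.514), *Retn* (-4.304), *Cfd* (-4.665), *Sprr2d* (-5.21), *Cyp2e1* (-5.63), *Cidec* (-5.035), *Sptssb* (-5.317), *BC114417* (-7.115), *Aqp3* (-5.872) and *Cox8b* (-5.86). Above 0 they were *Svs4* (2.894), *Dnase2b* (5.761), *Ren2* (6.267), *9530053A07Rik* (5.443), *Orm3* (5.805), *Azgp1* (4.718), *9530002B09Rik* (5.78), *Tgm4* (5.486), *Gsdma* (5.387), *2700070H01Rik* (5.177), *Pbsn* (5.381), *Fgl1* (5.387), *Pnliprp1* (6.466), *Svs1* (5.139), *Sva* (5.313), *Derl3* (4.894) and *AK186242* (6.909).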

How the results depend on the processing

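Of 15752 genes, 8348 were called between αERKO-DES and WT-DES, and this count stayed within 1.5 times under every alternative, from 6263 (mean FPKM above 5) to 10099 (no minimum), with 7498 under quantile normalisation, 8761 with every sample scaled to the same summed FPKM (an alternative added after seeing the data), 8307 with the same scaling without the 20 genes of highest mean, 7653 with a correction for transcript length and 7995 to 8833 when 1 sample was left out, the highest without WT-DES sample 1. The share of these genes that was higher moved more. It was 45.0% as measured, 39.9% with no minimum on FPKM, 54.0% with mean FPKM above 5, 51.8% under quantile normalisation, 18.9% with equal summed FPKM, 24.4% with the same scaling without those 20 genes, 46.8% at an adjusted p of at most 0.01, and 44.8% to 46.4% when 1 sample was left out. The cause was not tested. The median of all genes was 0.008 as measured, -0.44 with equal summed FPKM and -0.33 with the same scaling without those 20 genes. The interaction count of 8966 ranged from 7026 to 9718.

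Of 236 genes named by rule, 3 changed direction, all under quantile normalisation, *Tagln* (-0.053), *Cox4i1* (-0.081) and *Rps9* (-0.58), and the cause was not tested. Over 5172 values of these genes under alternatives, 5016 kept direction and call, 136 lost the call (28 of them under quantile normalisation) and 17 gained it. Of 1078 list counts under alternatives 43 moved by more than 1.5 times, 12 of them for smooth muscle.

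Same-numbered αERKO-DES and WT-DES samples deviated from their group means with correlations of -0.106 to -0.006, so the numbers do not pair the samples, and with a replicate block 8176 genes were called. With FPKM alone the depth is unknown, and weakly expressed genes, listed at or near 0 in a group, have differences set by the pseudocount of 1.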

Other observations

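Calls were also counted by kind of gene, with no test between kinds. Of 14239 protein-coding genes, 3362 were higher and 4216 lower in αERKO-DES, of 135 lincRNA genes 39 and 45, of 128 processed transcripts 32 and 29, and of 113 antisense genes 32 and 25, although reads of an antisense gene and its partner cannot be told apart without strand. Of 27 snoRNA genes 4 were higher and 1 lower, and of 25 miRNA genes 1 was lower.

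Some genes were listed at 0 throughout 1 of the groups. Of the genes called lower, 37 had no αERKO-DES sample above 0, among them the neutrophil attractant *Cxcl2* and the antimicrobial peptide gene *Camp*, and of those called higher 7 had no WT-DES sample above 0. These examples were chosen after their values were seen.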
